A study of Homo sapiens with 10 samples.

Results

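The genes described here make, store, take up and break down the catecholamines dopamine and noradrenaline: GCH1, TH, DDC, DBH, SLC18A2, SLC6A2, MAOA and MAOB, with MOXD1 added as a relative of DBH. These 9 genes were picked by name out of 14232 genes named on the array. A gene was measured where a probe set carried its symbol and no other, and this held for 7 of the 9. The probe set of DBH carries 7 symbols and that of MAOB carries 2, so neither gene has a value here. The cells were SH-SY5Y, a line from a human neuroblastoma with noradrenergic character, and the RNA of 10 samples was hybridised to Affymetrix exon arrays. In 5 samples the line had been stably transfected with wild-type SOD1, and in 5 with SOD1(G93A), a form of copper-zinc superoxide dismutase that causes familial amyotrophic lateral sclerosis. Stably transfected cells were kept in Geneticin. Both groups carry a SOD1 construct, so the comparison is of cells with mutant against cells with wild-type SOD1. Untransfected cells were not analysed here. No label names the promoter of the construct or says whether a line is 1 clone or a pool. An effect of the mutation therefore cannot be told apart from other differences between the transfected lines. Separate cultures for the samples within a group are not stated either. A p-value here sets the difference between the groups against the spread of these samples, and that spread may be technical.

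Catecholamines are made from tyrosine in a fixed order. TH adds a hydroxyl group with the help of tetrahydrobiopterin, whose synthesis GCH1 starts, and this step limits the rate of the pathway. DDC then removes a carboxyl group to give dopamine, which SLC18A2 pumps into vesicles, where the copper enzyme DBH turns it into noradrenaline. SLC6A2 takes released noradrenaline back up, and MAOA and MAOB, on the outer mitochondrial membrane, oxidise the amines that stay in the cytosol. Sympathetic neurons, adrenal chromaffin cells and many neuroblastomas express this set.

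Of the 7 measured genes, 4 were higher in the SOD1(G93A) line and 0 were lower, at an adjusted p of 0.05 or less by limma. MOXD1 rose by 2.78 on the log2 scale (SE 0.10), MAOA by 0.95 (SE 0.10), SLC18A2 by 0.64 (SE 0.08) and DDC by 0.28 (SE 0.06). GCH1, TH and SLC6A2 did not pass. Over all 22011 probe sets 7.46% were called, 3.24% as higher and 4.23% as lower. At an unadjusted p under 0.05, 5 of the 7 were higher and 1 was lower, and the unmoderated model also called 0 lower. The median change of the 7 genes was 0.28, against 0.00 over all probe sets. The groups did not overlap in 5 of the 7 genes, against 8.88% of all probe sets. All changes are given as SOD1(G93A) minus wild-type, on the log2 scale of the deposited intensities, and samples are called by the numbers in their titles.

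The sequence in front of the start site is shown for the 4 genes that rose, since they are the members that were called. Each line gives the 250 bases before the start in RefSeq (GRCh38.p14), which held such a sequence for 6 of the 9 genes. It held none for GCH1, TH and SLC6A2, the measured members that were not called, so the 4 could not be compared with these. The windows lie at chr7:50565406-50565655 on the minus strand for DDC, at chr6:132401476-132401725 on the minus strand for MOXD1, at chr10:117240864-117241113 on the plus strand for SLC18A2 and at chrX:43656049-43656298 on the plus strand for MAOA. Capitals mark matches on either strand to 5 motifs: the GC box GGGCGG, which SP1 binds, the cyclic AMP response element TGACGTCA, the EGR1 site GCGTGGGCG, the GATA sites AGATAA and TGATAA, and the TATA box TATAAA.
DDC: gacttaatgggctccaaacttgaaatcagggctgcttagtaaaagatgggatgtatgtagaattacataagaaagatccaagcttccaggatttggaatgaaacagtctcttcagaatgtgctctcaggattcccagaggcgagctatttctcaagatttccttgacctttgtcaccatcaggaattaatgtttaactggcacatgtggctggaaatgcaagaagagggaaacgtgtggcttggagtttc
MOXD1: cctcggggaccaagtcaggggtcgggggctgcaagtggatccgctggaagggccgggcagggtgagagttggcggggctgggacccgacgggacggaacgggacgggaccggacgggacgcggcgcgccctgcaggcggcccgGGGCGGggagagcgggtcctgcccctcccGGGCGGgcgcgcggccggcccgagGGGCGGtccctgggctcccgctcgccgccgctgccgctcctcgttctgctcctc
SLC18A2: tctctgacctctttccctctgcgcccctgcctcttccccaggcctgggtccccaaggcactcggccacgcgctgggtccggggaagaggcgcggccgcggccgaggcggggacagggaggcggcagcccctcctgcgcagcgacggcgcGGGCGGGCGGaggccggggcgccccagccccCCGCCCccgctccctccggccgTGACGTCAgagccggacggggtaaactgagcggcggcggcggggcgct
MAOA: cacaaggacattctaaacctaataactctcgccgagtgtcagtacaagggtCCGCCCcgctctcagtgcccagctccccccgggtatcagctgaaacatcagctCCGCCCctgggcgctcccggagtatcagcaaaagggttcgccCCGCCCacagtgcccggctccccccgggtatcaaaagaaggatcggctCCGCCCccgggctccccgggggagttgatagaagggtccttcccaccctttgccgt
The GC box was found 3 times in MOXD1, 3 times in SLC18A2, where a pair of the matches overlap, and 4 times in MAOA, but not in DDC. It occurs in 42.6% of the 35116 RefSeq promoter windows of the same length. The window of MOXD1 is 79.2% G and C, that of SLC18A2 78.8%, that of MAOA 63.2% and that of DDC 42.4%. SLC18A2 alone among these 4 holds the cyclic AMP response element, 48 to 41 bases before its start. That element occurs in 1.65% of all windows. None of the 4 holds the EGR1 site, a GATA site or the TATA box, which occur in 0.72%, 14.6% and 10.7% of the windows. A match is a match of letters, and the data do not measure binding.

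**Figure D1:**
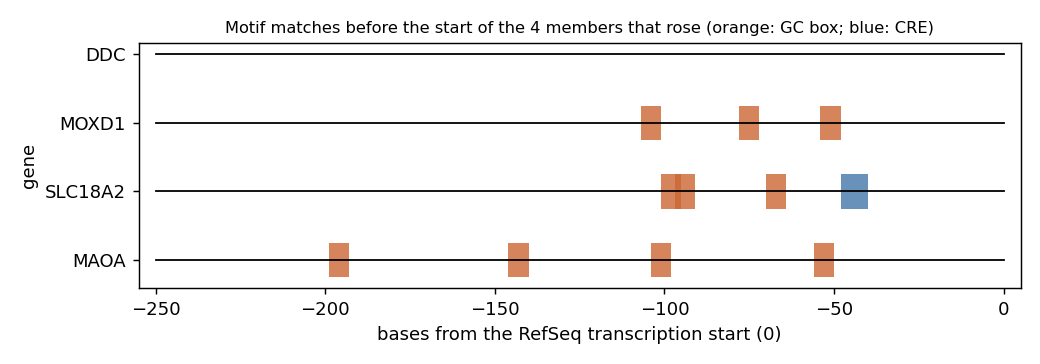
Positions of motif matches in the 250 bases before the RefSeq start of DDC, MOXD1, SLC18A2 and MAOA, in bases from the start; orange blocks are GC boxes and the blue block is a cyclic AMP response element. MOXD1 has 3 GC boxes, SLC18A2 has 3 and the cyclic AMP response element, MAOA has 4 GC boxes, and DDC has no match.

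Of the first 3 steps of synthesis, 1 was called, that of DDC. GCH1, which starts the synthesis of tetrahydrobiopterin, read 8.26, 8.45, 8.45, 8.37 and 8.50 in wild-type samples 2, 8, 11, 14 and 17. It read 8.52, 8.53, 8.49, 8.69 and 9.02 in SOD1(G93A) samples 3, 9, 12, 15 and 18. Sample 18 was the highest array, and SOD1(G93A) sample 12 lay just below wild-type sample 17, so the groups met. The difference was 0.25 (SE 0.10, 95% interval 0.02 to 0.47) and did not pass (adjusted p = 0.218 by limma). Without sample 18 it was 0.15.

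TH, the tyrosine hydroxylase, read 5.57, 5.66, 5.67, 5.58 and 5.46 in the wild-type samples and 5.64, 5.60, 5.75, 5.75 and 5.61 in the SOD1(G93A) samples. The groups overlapped between 5.60 and 5.67. The difference was 0.08 (SE 0.06, adjusted p = 0.553 by limma), and its 95% interval of −0.05 to 0.21 bounds the change that 10 arrays could show. In every array the TH probe set read below the array's median, which lay between 6.26 and 6.34, and above its lower quartile, which lay between 3.84 and 3.89.

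DDC, the aromatic amino acid decarboxylase, read 10.22, 10.09, 10.13, 10.27 and 10.13 in the wild-type samples and 10.43, 10.34, 10.43, 10.42 and 10.62 in the SOD1(G93A) samples. The lowest SOD1(G93A) array stood above the highest wild-type one. The rise of 0.28 (SE 0.06, adjusted p = 0.0231 by limma) corresponds to 1.21-fold. It was the only 1 of the 4 calls to be lost when arrays were left out. Without wild-type sample 8, 11 or 17 the adjusted p was 0.0615, 0.0579 and 0.0565. It was 0.0846 without samples 17 and 18 together, and over all alternatives it ran from 0.0136 to 0.0846.

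MOXD1, a monooxygenase-like protein related in sequence to DBH, showed the largest change of the 7 genes. It read 3.42, 3.60, 3.30, 3.44 and 3.68 in the wild-type samples, all below the lower quartile of the arrays. In the SOD1(G93A) samples it read 6.06, 6.44, 6.14, 6.28 and 6.44. The groups lay more than 2 log2 units apart at their nearest point. The rise of 2.78 (SE 0.10, adjusted p = 3.75e-08 by limma) corresponds to 6.89-fold, and it was the only one of the 4 past the labels' added threshold of 2-fold, which 0.872% of all probe sets passed. Differences that start at a dim level are compressed on this array, so the fold may be understated. Whether DBH, its relative, changed cannot be read from these data by the naming rule.

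**Figure D2:**
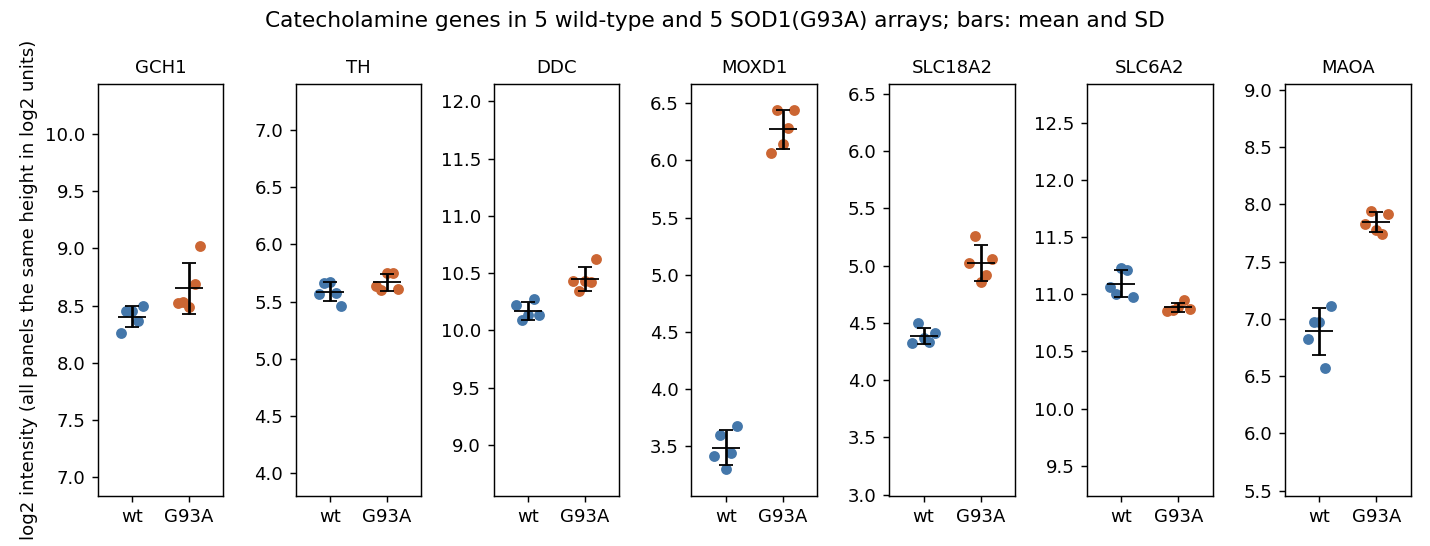
Log2 intensity of the 7 measured genes in each of 5 wild-type SOD1 (wt, blue) and 5 SOD1(G93A) (G93A, orange) arrays, with mean and SD in black; each panel has its own range of the same height. MOXD1 stands apart from 3.30 to 3.68 against 6.06 to 6.44, MAOA and SLC18A2 are also separated, and the TH and GCH1 groups overlap.

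Of the transporters SLC18A2 and SLC6A2, for storage and uptake, 1 was called, SLC18A2. SLC18A2, the vesicular monoamine transporter of neurons, read 4.32, 4.50, 4.37, 4.33 and 4.41 in the wild-type samples and 5.02, 5.26, 4.86, 4.92 and 5.06 in the SOD1(G93A) samples. All SOD1(G93A) arrays were above all wild-type ones. The rise was 0.64 (SE 0.08, adjusted p = 0.000427 by limma), or 1.56-fold. In every array the SLC18A2 probe set read below the array's median (6.26 to 6.34) and above its lower quartile (3.84 to 3.89), so its signal was dim. SLC18A1, the related vesicular transporter of chromaffin cells, had a difference of 0.06 (SE 0.07, adjusted p = 0.753 by limma), with a wild-type mean of 10.82 ± 0.06 and a SOD1(G93A) mean of 10.88 ± 0.14 (SD, n = 5 each).

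SLC6A2, the noradrenaline transporter of the cell surface, read 11.06, 11.00, 11.23, 11.21 and 10.98 in the wild-type samples and 10.85, 10.86, 10.89, 10.95 and 10.87 in the SOD1(G93A) samples. Every SOD1(G93A) array lay below every wild-type array, by a narrow margin. The difference was −0.21 (SE 0.06, 95% interval −0.35 to −0.07) and did not pass over all probe sets (adjusted p = 0.0841 by limma; 0.0582 to 0.178 over the alternatives). The dopamine transporter SLC6A3 had a difference of 0.06 (SE 0.08, adjusted p = 0.787 by limma).

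Among the breakdown enzymes, MAOA, the monoamine oxidase that prefers serotonin and noradrenaline, read 6.82, 6.97, 6.97, 6.57 and 7.11 in the wild-type samples and 7.83, 7.94, 7.78, 7.74 and 7.92 in the SOD1(G93A) samples. The groups were well separated, and the spread was wider in the wild-type group (SD 0.20 against 0.09, n = 5 each). The rise of 0.95 (SE 0.10, adjusted p = 0.000101 by limma) corresponds to 1.94-fold. MAOB, which lies beside MAOA on the X chromosome, has no value of its own here.

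Whether neighbouring steps changed unequally was tested on the difference of 2 genes within each array. There were 3 such pairs, and for each the 10 arrays were permuted exactly, 2-sided, with adjustment over the 3. SLC18A2 and SLC6A2 changed unequally, by 0.84 (p = 0.00794, the smallest possible, adjusted p = 0.0238, exact permutation test). Every SOD1(G93A) array lay above every wild-type array in SLC18A2 and below in SLC6A2, so this p was fixed by those separations. The test adds no support beyond them. TH changed by 0.20 less than DDC (change of TH minus change of DDC −0.20, p = 0.0238, adjusted p = 0.0357, exact permutation test). That result did not hold without any 1 of 7 arrays, and without sample 18 the difference was −0.14 with an adjusted p of 0.131 (exact permutation test; 0.0238 to 0.131 over the alternatives). TH and GCH1 had a difference of changes of −0.17 that was not past the threshold (p = 0.238, adjusted p = 0.238, exact permutation test). It was −0.06 without sample 18, and ran from −0.23 to −0.06 with 1 array left out. The pairs MOXD1 with DBH and MAOA with MAOB could not be tested. The genes of each tested pair were read at unlike levels. Wild-type means were 4.39 for SLC18A2 and 11.09 for SLC6A2, and 5.59 for TH, 10.17 for DDC and 8.40 for GCH1. Differences at a dim level are compressed on this array, and the part of this in the unequal changes was not tested.

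The other genes of the pathway were taken in 8 lists of 96 genes, of which 72 were measured. In all, 3 were higher and 7 lower by limma, or 13.9% against the 7.46% of all probe sets. Of 6 measured genes of the tetrahydrobiopterin cofactor, 0 rose and 1 fell, and the median change was 0.11. The one that fell was SPR, sepiapterin reductase, which completes the cofactor. It read 7.63 to 7.87 in the wild-type samples and 7.05 to 7.47 in the SOD1(G93A) samples, a fall with no overlap (log2 fold change −0.50, SE 0.09, adjusted p = 0.00411 by limma).

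Among 7 genes that handle or use copper or ascorbate, 1 rose and 1 fell, with a median change of −0.03. Of all probe sets, 3.24% were called higher and 4.23% lower. ATP7A, the pump that loads copper into the secretory pathway, read 6.65, 6.31, 6.32, 6.59 and 6.61 in the wild-type samples and 7.42, 7.66, 7.81, 8.03 and 8.23 in the SOD1(G93A) samples. It rose by 1.34 (SE 0.15, adjusted p = 0.000181 by limma), the largest change in the 8 lists. CYB561, the cytochrome that regenerates ascorbate inside catecholamine vesicles, fell by 0.26 (SE 0.07, adjusted p = 0.0445 by limma). Its groups overlapped at wild-type sample 2, which read 10.77, and leaving out any 1 of 9 arrays ended the call (adjusted p up to 0.106 by limma), as did the unmoderated model.

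Of 11 measured adrenergic and dopamine receptors 2 rose, 0 fell and 9 were not called by limma, against 3.24% of all probe sets called higher. At an unadjusted p under 0.05 the counts were also 2 and 0, and the median change was 0.02. DRD2, the dopamine receptor that also acts as an autoreceptor, read 7.33 to 7.70 in the wild-type samples and 7.94 to 8.17 in the SOD1(G93A) samples, a rise of 0.55 (SE 0.07, adjusted p = 0.000888 by limma). ADRA2A, the adrenergic autoreceptor, read 5.95 to 6.33 and 6.52 to 6.79, a rise of 0.52 (SE 0.09, adjusted p = 0.00354 by limma). Neither gene's groups overlapped.

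Of 15 measured transcription factors of the catecholamine genes, 0 rose and 4 fell by limma, with a median change of −0.05. Of all probe sets, 3.24% were called higher and 4.23% lower. At an unadjusted p under 0.05, 1 was higher and 6 were lower, and the unmoderated model called 0.0 higher and 4.0 lower. EGR1, an immediate-early factor that can act on the TH promoter, fell by 0.66 (SE 0.11, adjusted p = 0.00305 by limma). REST, a repressor of neuronal genes, fell by 0.60 (SE 0.08, adjusted p = 0.000589 by limma). GATA2 and GATA3, factors of the sympathetic lineage, fell by 0.58 (SE 0.08) and 0.38 (SE 0.07), with adjusted p of 0.00131 and 0.00732 by limma. Their levels were 10.67 ± 0.14 against 10.10 ± 0.12 for GATA2 and 10.32 ± 0.11 against 9.94 ± 0.11 for GATA3 (SD, n = 5 each). PHOX2A, which drives the noradrenergic genes, had a difference of 0.17 (SE 0.10, adjusted p = 0.380 by limma). SP1 and CREB1, the factors named for the GC box and the cyclic AMP response element above, had differences of −0.05 and −0.11 (adjusted p = 0.778 and 0.508 by limma).

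The remaining lists held few calls, where 3.24% of all probe sets were called higher and 4.23% lower. Of 16 measured 14-3-3 proteins and kinases that act on TH, the kinase MAPKAPK2 fell by 0.28 (SE 0.07, adjusted p = 0.0387 by limma) and 0 rose. Leaving out any 1 of 7 arrays ended that call (adjusted p up to 0.0948 by limma). None of 4 other amine synthesis enzymes was called by limma or the unmoderated model, with 0 at an unadjusted p under 0.05. In this list PNMT, which methylates noradrenaline to adrenaline, had a difference of −0.08 (SE 0.09). None of 7 other storage and uptake transporters was called by limma or the unmoderated model, with 1 higher and 0 lower at an unadjusted p under 0.05. The same held for 6 other breakdown enzymes, mostly aldehyde dehydrogenases, with 1 higher and 1 lower at an unadjusted p under 0.05.

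**Figure D3:**
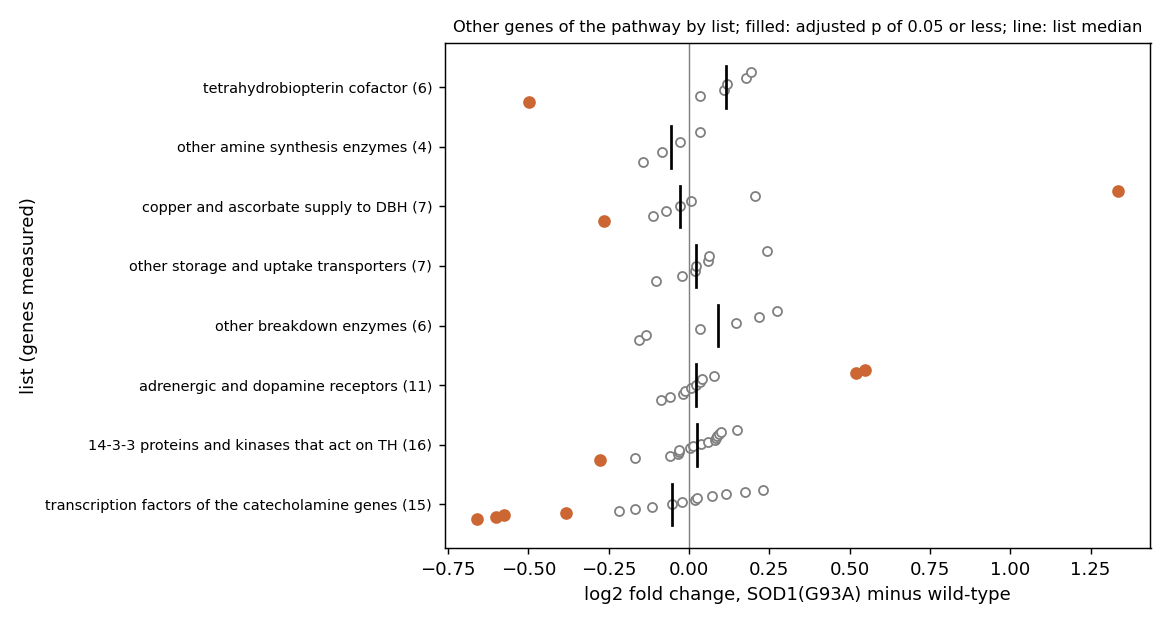
Log2 fold change (SOD1(G93A) minus wild-type) of the 72 other measured genes of the pathway, 1 point per gene in 8 lists; filled points have a limma adjusted p of 0.05 or less and black lines are list medians. ATP7A stands alone at 1.34, DRD2 and ADRA2A are near 0.55 and 0.52, and the 4 called transcription factors lie between −0.66 and −0.38.

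**Figure D4:**
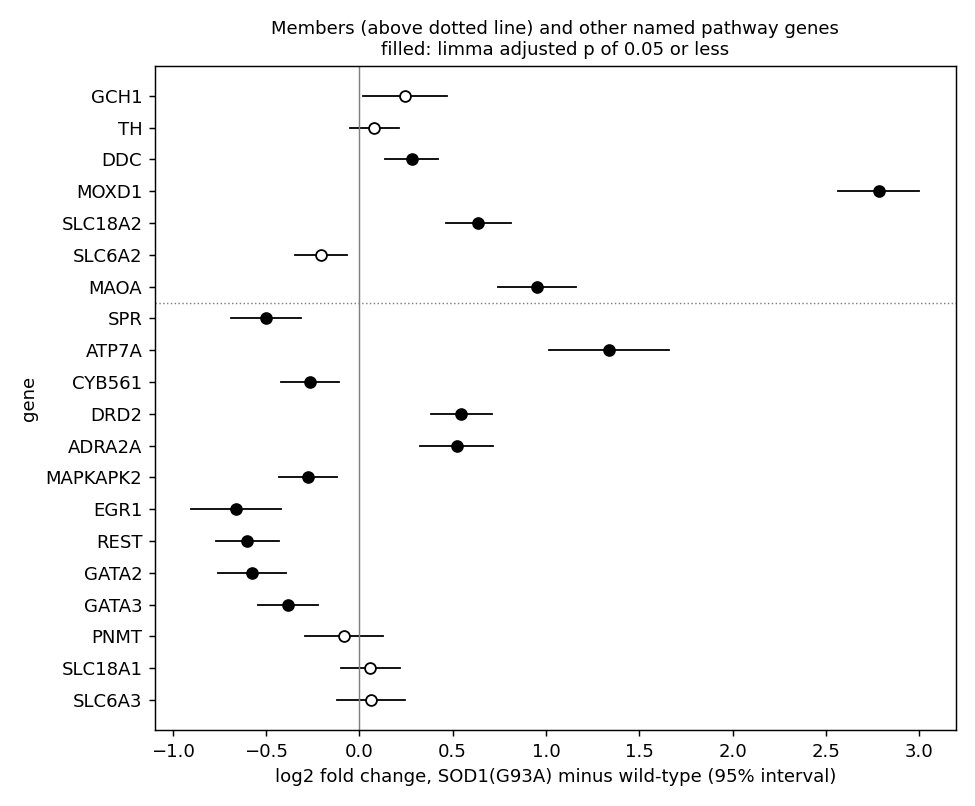
Log2 fold change with 95% interval (limma, 5 against 5 arrays) of the 7 measured members and of 13 other named genes of the pathway; filled points passed an adjusted p of 0.05. MOXD1 at 2.78 and ATP7A at 1.34 are the largest rises, and the intervals of TH, PNMT, SLC18A1 and SLC6A3 include 0.

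The genes beside the members on their chromosomes were also read, 3 measured genes on each side. Of these 42 neighbours 1 was higher and 3 were lower by limma, or 9.52% against 7.46% of all probe sets. STX7, a syntaxin of endosomes and the measured gene next to MOXD1 on chromosome 6, rose by 0.67 (SE 0.08, adjusted p = 0.000541 by limma). CCN2, on the other side of MOXD1, had a difference of 0.02 (SE 0.07). MMP2 and LPCAT2, before SLC6A2 on chromosome 16, were lower by 0.38 (SE 0.08) and 0.39 (SE 0.08), with log2 fold changes of −0.38 and −0.39. IKZF1, near DDC on chromosome 7, had a log2 fold change of −0.44 (SE 0.10), opposite in sign to DDC. None of the 6 neighbours of MAOA, of SLC18A2, of TH or of GCH1 was called by limma.

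By the root mean square difference of mean-centred values over the 10 arrays, the genes most like MOXD1 were PTPRR (0.19), MAB21L2 (0.30) and COL3A1 (0.32). On the log2 scale their changes were 2.67, 3.24 and 2.33. The measure covers both groups, so it favours genes whose change is close to that of MOXD1. Changes of like size therefore follow from the choice of these genes and add no support.

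Over all probe sets, arrays of the same group correlated at 0.990 to 0.994 and arrays of different groups at 0.986 to 0.990. For the marker counts that follow, 3.24% of all probe sets were called higher and 4.23% lower. Of 10 measured markers of noradrenergic neuroblastoma, TH among them, 2 were higher and 2 lower by limma, and none lay below the lower quartile. CHGA and CHGB rose by 1.06 and 1.40, and GATA2 and GATA3, also counted above, fell by 0.58 and 0.38. The list mean ranged from 9.45 to 9.65 in the wild-type and from 9.60 to 9.82 in the SOD1(G93A) arrays. Of 11 measured markers of the mesenchymal, substrate-adherent state of neuroblastoma 5 were higher and 1 lower, with list means of 6.41 to 6.61 and 6.54 to 6.68. VIM, FN1, CD44, YAP1 and CCN1 rose by 0.37, 0.46, 0.47, 0.66 and 0.47, and SNAI2 fell by 1.03, so the list was split. The part of these markers in the changes of MOXD1, MAOA, SLC18A2 and DDC was not tested. Of 5 measured Schwann and glial markers 1 was higher, S100B. Neither limma nor the unmoderated model called any of 8 markers of immune and endothelial cells, with 0 at an unadjusted p under 0.05. Of 4 cholinergic markers 1 was lower: SLC18A3, the vesicular acetylcholine transporter (log2 fold change −1.09, SE 0.12, adjusted p = 0.00018 by limma). Of 5 serotonergic markers 0 were called by either model, with 1 lower at an unadjusted p under 0.05 and 4 below the lower quartile. In bulk RNA, a change in the share of cells of a type and a change in RNA per cell cannot be told apart.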

How the data were processed

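The deposited values are log2 intensities, 1 for each probe set and array. They were made by the authors with RMA (named in the submitters' processing notes) in oneChannelGUI 1.6.5 (named in the labels). RMA makes the arrays' distributions alike, which hides any change shared by all genes. For the genome build, filters and detection calls the sources used here give nothing. Genes were named through the platform annotation: 14432 of 22011 probe sets had 1 symbol, 2408 had several and 5171 had none. Per gene the probe set with the highest mean was used; each measured member had 1. All probe sets were fitted together in limma 3.58.1 (R 4.3.3), SOD1(G93A) minus wild-type, 2-sided, with Benjamini-Hochberg adjustment over all of them and a call at 0.05, the rate in the labels. On simulated data of this comparison (22011 probe sets), 91% of changes of 1 and 65% of changes of 0.5 log2 were called. The simulation had independent noise and far fewer changed probe sets than the 1643 called in the data. The share called depends on that number, so these rates may not hold for the data. The members, lists and tests were chosen with earlier results of these data known. Named were all members, up to 4 called genes per list, PNMT, SLC18A1 and SLC6A3. SP1, CREB1, PHOX2A, CCN2 and the called noradrenergic, mesenchymal, glial and cholinergic markers were named besides. The number of arrays limits the precision. Alternatives were leaving out arrays, other variance models, array weights, a brightness filter, other scaling and a fold threshold.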

Additional observations from a re-analysis of the deposited data

Results flagged for a closer look

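In CYB561, wild-type sample 2 read 10.77, apart from the other 4 wild-type arrays at 11.02 to 11.12 and inside the range of the SOD1(G93A) arrays. Its gap to the nearest array was 0.722 of the group's range, above the 95% critical value of Dixon's test (0.71). It was the only such array among 40 groups of 5 values, for 20 genes, and chance gives about 1 in 20.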

How the results depend on the processing

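The rises of MOXD1, MAOA and SLC18A2 kept their direction and their call under every alternative that only left out arrays, changed the variance model, weighted arrays or subtracted array medians. GCH1, TH and SLC6A2 were called under none of the alternatives run. With the labels' 2-fold threshold only MOXD1 stayed, so the count of members called higher was 1 in place of 4, and MAOA (0.95), SLC18A2 (0.64) and DDC (0.28) were not called. Among probe sets brighter than the median, 4 of the 7 genes remained in the fit and 2 were called higher; MOXD1, SLC18A2 and TH were too dim for that fit. Leaving out 1 array gave 3 or 4 genes called higher and 0 lower. The DDC change ran from 0.24 to 0.31 with 1 array left out, and was 0.23 without samples 17 and 18 together (not called). The difference of changes of TH and DDC ran from −0.23 to −0.14, and was −0.16 without samples 17 and 18 (not past the threshold). That of SLC18A2 and SLC6A2 ran from 0.78 to 0.90, and was 0.87 without samples 17 and 18. Its adjusted p was then 0.0857 by exact permutation of 4 against 4 arrays, not past the threshold. That value depends on the p-values of the other pairs as well as on the number of arrays. Without these samples the groups still did not overlap in SLC18A2 or in SLC6A2, so the unadjusted p was the smallest that 4 against 4 arrays allow. The cause of the losses for DDC and for TH with DDC, beyond fewer arrays, was not tested. Other probe sets could not be tried, since each measured gene had 1, and pairs with DBH or MAOB were not run. No paired analysis was made, because the groups share no sample number in the labels and no label ties consecutive numbers to each other.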
